A study of Oryza sativa Japonica Group with 4 samples.

Results

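The distal ends of rice chromosomes 1 to 8 were taken as the last 3 Mb before the largest region end listed on each chromosome, and every differentially methylated region (DMR) with its midpoint there was a member, whatever its cytosine context or direction of change. Position alone chose the members, and no methylation value was used. The ends held 85305 of the 1245898 DMRs in all, of which 7879 were hypo-DMRs, called as lower in methylation after zebularine treatment, and 77426 were hyper-DMRs, called as higher after M.CviP I treatment. The rest of the same 8 chromosomes held 824413 DMRs. The ends made up 24 Mb of 270.5 Mb, or 8.87% of the length of these chromosomes. Each end carried between 10107 DMRs (chromosome 6) and 10972 DMRs (chromosome 4).

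Bisulfite sequencing (BS-seq) had been performed on 4 libraries of Nipponbare rice seedling DNA, and each condition had 1 library. For the zebularine library, 100 seedlings, 5 days old at the start, were kept for 5 days with 80 μM zebularine dissolved in DMSO. Its CK (control) library came from seedlings that were given DMSO alone for the same time. How many of the seedlings went into each library was not stated. The M.CviP I library came from 4 μg of purified genomic DNA incubated for 1 h at 37℃ with 8 units of the enzyme and 640 μM of its methyl donor SAM, and its CK library came from genomic DNA without this treatment. Whether that CK DNA went through the incubation without enzyme was not given in the sources used here. No group carried a mutation or a transgene, and whole seedlings mix many cell types, so a level between 0 and 1 can stand for a mixture of cells.

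Plants methylate cytosine in CG, CHG and CHH contexts, where H is A, C or T. CG methylation is copied after replication by MET1-type enzymes, CHG methylation is maintained by chromomethylases together with histone H3K9 methylation, and CHH methylation is renewed by the RNA-directed pathway with DRM-type enzymes and by CMT2-type chromomethylases. Transposons and pericentromeric heterochromatin usually carry all of these kinds, while the bodies of many expressed genes carry CG methylation alone. Zebularine is a cytidine analog that traps DNA methyltransferases and so lowers methylation in dividing cells. M.CviP I is a viral enzyme known to methylate cytosine after guanine in naked DNA, so it can act on cytosines of every context, although the labels describe it as a CpG methyltransferase.

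All levels below are mean methylation levels of the cytosines in a DMR, as a fraction from 0 to 1, and all differences are treated minus CK. The lists held regions that had passed the authors' cutoffs, with a smallest difference of 0.1 in size, a largest p-value of 0.00999 and at least 5 cytosines. Positions are those of MSU7.0. With 1 library per condition no comparison has a replicate check, and DMRs or chromosomes of the same library are not replicates of a treatment. The number of chromosomes that go the same way is therefore a description, and the 95% intervals (exact binomial for shares of regions) cover counting error only. The reads behind each level are unknown beyond the authors' minimum of 3 per cytosine. A loss can be called only where CK is methylated, and a gain only where CK is not fully methylated. The lists do not show how much such sequence the ends and the rest held. A density of DMRs is therefore not a measure of how strongly a compartment responded to a treatment. Genes, exons and sequence at these positions were not analysed here, so the name "gene-rich" for the ends was not checked against an annotation.

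After zebularine treatment, the distal ends had fewer hypo-DMRs per Mb than the rest of the chromosomes in the CG and CHG contexts. The ends held 7480 CG hypo-DMRs, or 311.7 per Mb, against 482.9 per Mb in the rest, a ratio of 0.645 (95% interval 0.630 to 0.661). The density was lower in the end on 8 of 8 chromosomes, with ratios between 0.538 (chromosome 4) and 0.736 (chromosome 3). Densities in the ends lay between 251.3 (chromosome 1) and 368.3 per Mb (chromosome 7), and in the rest between 403.5 and 555.7 per Mb, so the ranges did not overlap. Counted in 500 bp windows, 21.3% of the windows of the ends were touched by a CG hypo-DMR over 1 base or more, against 32.3% of the windows in the rest and 31.3% of all 540932 windows on chromosomes 1 to 8.

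Hypo-DMRs in the other 2 contexts were few. The ends held 176 CHG hypo-DMRs, or 7.33 per Mb against 10.5 per Mb in the rest (ratio 0.701, interval 0.599 to 0.817), and the end was sparser on 8 of 8 chromosomes. They held 223 CHH hypo-DMRs, or 9.29 per Mb against 10.5 per Mb (ratio 0.885, interval 0.768 to 1.02). This interval includes equal density, and with a minimum difference of 0.2 the ratio was above 1, at 1.20. CHH hypo-DMRs were sparser in the end on 7 chromosomes and denser on chromosome 7, where the end had 14.0 per Mb against 10.8 per Mb in the rest. Of the 500 bp windows in the ends, 0.592% held a CHG hypo-DMR and 0.677% a CHH hypo-DMR, against 0.860% and 0.754% in the rest, where the share over all windows was 0.836% for CHG and 0.747% for CHH.

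**Figure D1:**
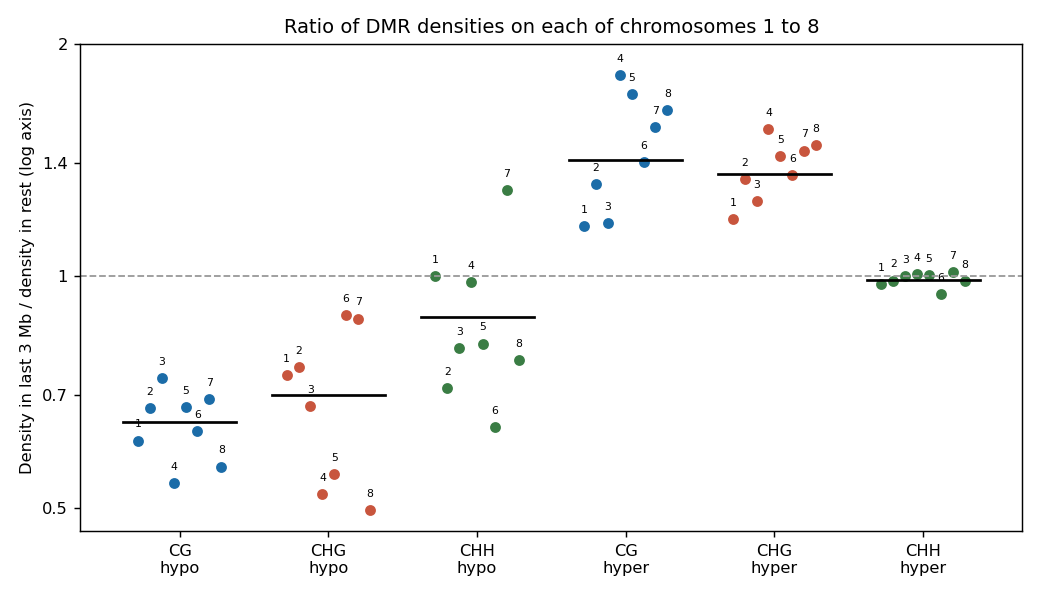
Ratio of DMRs per Mb in the last 3 Mb to DMRs per Mb in the rest of the same chromosome, on a log axis, for the 6 sets of DMRs. Each point is a chromosome with its number and each black line the ratio over all 8 chromosomes; CG and CHG hypo-DMRs lie below 1 and CG and CHG hyper-DMRs above 1 on all 8, while CHH hyper-DMRs lie between 0.947 and 1.01.

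M.CviP I gave the opposite order in CG and CHG. The ends held 10876 CG hyper-DMRs, or 453.2 per Mb against 320.9 per Mb in the rest, a ratio of 1.41 (interval 1.38 to 1.44). The end was denser on 8 of 8 chromosomes, with ratios between 1.16 on chromosome 1 and 1.82 on chromosome 4. CHG hyper-DMRs numbered 24799 in the ends, or 1033 per Mb against 761.8 per Mb in the rest, a ratio of 1.36 (interval 1.34 to 1.37). All 8 ends, at 969.3 to 1102 per Mb, were denser in CHG hyper-DMRs than the rest of any of the 8 chromosomes, at 677.4 to 871.4 per Mb.

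CHH hyper-DMRs covered most of the chromosomes everywhere. The ends held 41751 of them, or 1740 per Mb against 1758 per Mb in the rest (ratio 0.989, interval 0.979 to 0.999), with 4 chromosomes denser and 4 sparser in the end. The ratio was above 1 when regions within 100 bp were merged (1.04) and when regions with a CK level below 0.05 alone were kept (1.06). They covered 79.4% of the bases of the ends and 80.6% of the bases of the rest. In 500 bp windows, CG hyper-DMRs were in 29.6% of windows in the ends against 21.3% in the rest (22.0% of all windows), CHG hyper-DMRs in 62.8% against 49.0% (50.2% of all), and CHH hyper-DMRs in 93.7% against 94.4% (94.4% of all). At 500 bp nearly all windows of both compartments were thus touched by a CHH hyper-DMR. These regions had a median length of 493 bp in the ends and in the rest, close to the window size. How far their size sets their number per Mb was not tested. Of all windows in the ends, 95.05% held at least 1 DMR of some kind, against 95.7% in the rest.

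The windows were also sorted by the kinds of DMR they held. Losses came from the zebularine list and gains from the M.CviP I list. A loss and a gain in the same window are thus from separate experiments with different CK libraries. The shares of single contexts already differed between compartments, as given above, and the joint shares were not separated from them. Windows with a gain in all 3 contexts made up 24.8% of the ends against 17.1% of the rest. Windows with a CHH gain and no CG or CHG gain, whether or not they also held a hypo-DMR, made up 27.2% of the ends against 42.1% of the rest. Windows with a CG loss and a CHG gain had similar shares, 9.66% in the ends and 10.6% in the rest, while windows with a CG loss and no CHG gain made up 11.6% of the ends and 21.7% of the rest.

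The first 3 Mb of the same chromosomes gave a second comparison. CG hypo-DMRs stood at 311.7 per Mb in the distal ends, 407.2 per Mb in the first 3 Mb and 491.1 per Mb in the middle part between them. CG hyper-DMRs stood at 453.2 per Mb in the distal ends, 356.2 per Mb in the first 3 Mb and 317.1 per Mb in the middle. For CHG hyper-DMRs the densities were 1033, 902.7 and 746.6 per Mb in that order. The distal end was denser than the first 3 Mb in CG hyper-DMRs on 7 chromosomes, the exception being chromosome 3 with 473.7 per Mb in its distal end and 532.3 per Mb in its first 3 Mb. Chromosome 4 had the widest contrast between its 2 ends: its distal end carried 294.0 CG hypo-DMRs and 1078 CHG hyper-DMRs per Mb, and its first 3 Mb carried 700.7 and 569.7 per Mb.

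Each chromosome was also cut from its distal end into 3 Mb windows, 9 to 14 per chromosome and 85 in all, to see where the end stood in the order. In CHG hyper-DMRs the distal end was the densest window on 5 chromosomes and among the top 3 on 8 of 8. In CG hyper-DMRs it was the densest on 2 and among the top 3 on 5 chromosomes. In CG hypo-DMRs it was the sparsest window on 4 and among the bottom 3 on 6 chromosomes, with chromosome 7 (rank 6 of 9) and chromosome 3 (rank 7 of 12) as the exceptions. The densest 3 Mb window of CG hypo-DMRs had its centre 16.5 to 25.5 Mb from the distal end on these chromosomes.

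**Figure D2:**
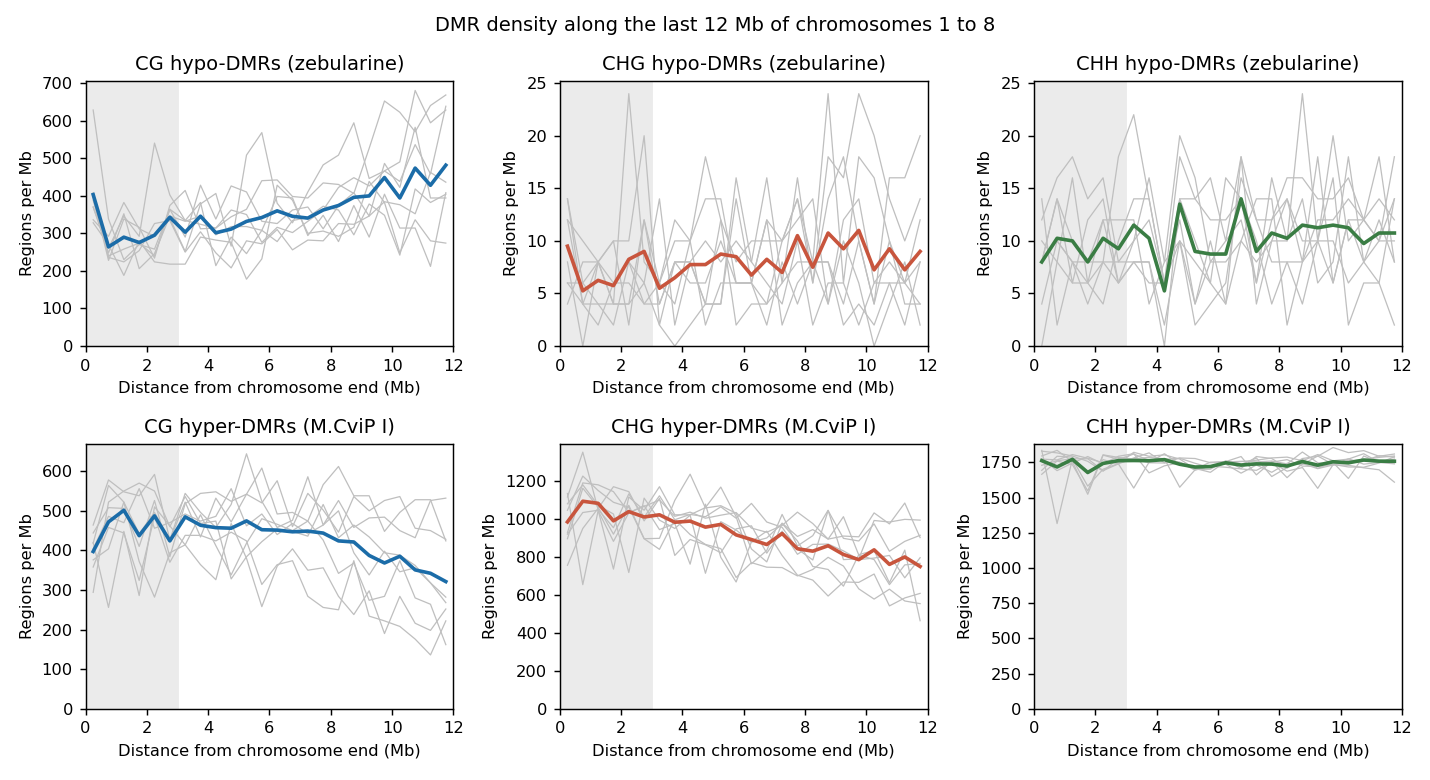
DMRs per Mb in steps of 0.5 Mb against the distance from the distal end of the chromosome in Mb, for the 6 sets of DMRs. Grey lines are the 8 chromosomes, coloured lines the mean over them, and the shaded band is the last 3 Mb; CG hypo-DMRs drop just inside a dense outermost step, and CHG hyper-DMRs thin out inward.

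Density was not even within the ends. In the outermost 0.5 Mb there were 403.0 CG hypo-DMRs per Mb, against 293.4 per Mb between 0.5 and 3 Mb from the end, and the outermost step was denser on 8 of 8 chromosomes. The highest value was 628.0 per Mb on chromosome 5. The 100 kb window with most CG hypo-DMRs in any end was the outermost window of chromosome 5, from 29857381 to 29957380, with 101 regions where the median over 240 such windows was 29. Its CG hypo-DMRs had median levels of 0.766 after zebularine and 0.930 in CK. Farther inward CG hypo-DMRs became denser again and reached 481.2 per Mb at 11.5 to 12 Mb from the end.

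CG hyper-DMRs had the reverse order at the outermost step, with 397.2 per Mb there and 464.4 per Mb between 0.5 and 3 Mb, and the outermost step was the denser on only 1 of 8 chromosomes. Their median difference was 0.710 in the outermost 0.5 Mb and 0.672 between 0.5 and 3 Mb. The limit of 3 Mb did not fall on a step in the data. Just inside it (2.5 to 3 Mb) there were 342.8 CG hypo-DMRs, 424.0 CG hyper-DMRs, 1010 CHG hyper-DMRs and 1763 CHH hyper-DMRs per Mb, and just outside it (3 to 3.5 Mb) 303.0, 484.8, 1022 and 1764 per Mb.

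Other dense places in the ends were named by the same count of regions per 100 kb. CG hyper-DMRs reached 87 on chromosome 4 from 33102316 to 33202315, against a median of 46 per window. CHG hyper-DMRs reached 148 on chromosome 8 from 27641852 to 27741851, against a median of 107, and CHH hyper-DMRs reached 192 on chromosome 5 from 29457381 to 29557380, against a median of 178. CHG and CHH hypo-DMRs never exceeded 4 in a window. The longest stretch of an end without any DMR lay on chromosome 6 from 30681846 to 30693503 (11658 bp). On the other 7 chromosomes the longest such stretch was 3696 to 9854 bp, and 13.9% (chromosome 7) to 20.7% (chromosome 6) of an end was outside every DMR.

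CG hypo-DMRs in the ends had a median level of 0.778 after zebularine and 0.95 in CK, against 0.790 and 0.951 in the rest. The median difference was -0.167 in the ends and -0.158 in the rest, and the loss was larger in the end on 8 of 8 chromosomes, at -0.172 to -0.163 in the ends and -0.159 to -0.157 in the rest. In the first 3 Mb, a part of the rest, the median difference was -0.163. Of the CG hypo-DMRs, 68.3% in the ends and 75.3% in the rest lost less than 0.2. DMRs in the ends were also shorter and had fewer cytosines, with medians of 304 bp and 20 cytosines against 361 bp and 25 cytosines in the rest. Among regions with at least 10 cytosines the difference between the medians was -0.0058, where it was -0.0093 over all CG hypo-DMRs.

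CHG hypo-DMRs had median levels of 0.599 after zebularine and 0.802 in CK in the ends, and 0.565 and 0.777 in the rest. Their median differences were -0.173 and -0.177, with overlapping intervals (-0.187 to -0.164 in the ends and -0.180 to -0.174 in the rest). The end minus the rest was 0.0038, and it was -0.0102 among losses of at least 0.2. The CHG hypo-DMRs of chromosome 4 stood apart, since the 16 in its end had a median of 0.0350 after zebularine and 0.292 in CK, where the medians of the other 7 ends were 0.563 to 0.653 after zebularine and 0.7997 to 0.836 in CK. CHH hypo-DMRs had median levels of 0.0450 after zebularine and 0.196 in CK in the ends, and 0.0426 and 0.184 in the rest. The CHH loss was larger in the end on 8 of 8 chromosomes, but the medians of -0.136 in the ends and -0.130 in the rest differed by less than the width of the interval in the ends (-0.143 to -0.131).

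**Figure D3:**
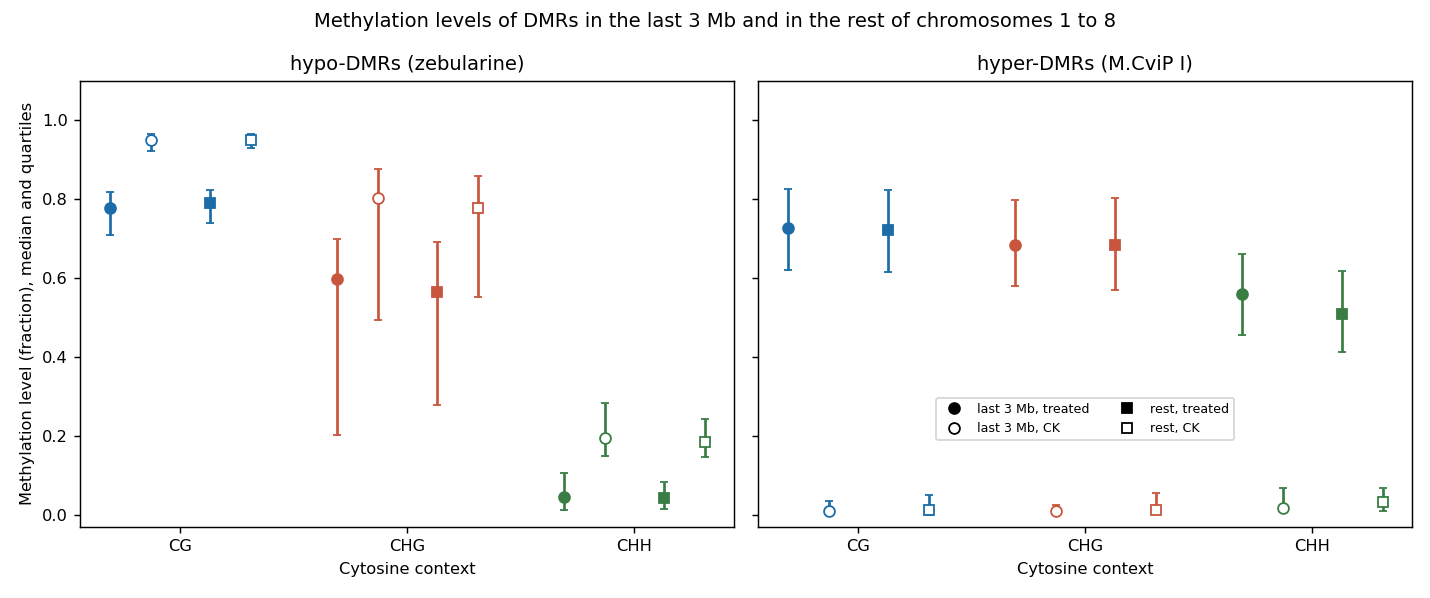
Methylation levels as a fraction, with the median as a point and the quartiles as a bar, in the treated library (filled) and CK (open), for DMRs in the last 3 Mb (circles) and in the rest of chromosomes 1 to 8 (squares). CHH hyper-DMRs have treated medians of 0.561 in the ends and 0.509 in the rest.

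After M.CviP I treatment, CHH gains were larger in the ends than in the rest. CHH hyper-DMRs had median levels of 0.561 after M.CviP I and 0.0168 in CK in the ends, and 0.509 and 0.0319 in the rest. The median gain was 0.520 in the ends (interval 0.518 to 0.523) and 0.455 in the rest (interval 0.454 to 0.456). The difference of 0.0652 between these medians was 0.0409 between means, where the difference between means of CHG gains was 0.0433. On 8 of 8 chromosomes the treated level was higher and the CK level lower in the end than in the rest. The 8 end medians of the gain, 0.506 to 0.541, lay above all 8 medians of the rest, 0.440 to 0.473. The first 3 Mb, a part of the rest, had a median CHH gain of 0.494, so a larger gain was not particular to the distal ends. On chromosome 1 the gain was 0.515 in the first 3 Mb and 0.507 in the distal end, and on chromosome 3 it was 0.539 and 0.530. On the other chromosomes it was larger in the distal end. Gains of at least 0.5 made up 53.8% of the CHH hyper-DMRs in the ends and 41.2% in the rest, and gains of at least 0.8 made up 4.87% and 3.60%.

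CHG hyper-DMRs had almost equal treated levels, 0.685 in the ends and 0.684 in the rest, and differed in CK. The CK median was 0.01 in the ends and 0.0129 in the rest, and 83.6% of those in the ends and 74.0% of those in the rest began below 0.05 in CK. Regions that were already at 0.5 or more in CK made up 2.52% of the CHG hyper-DMRs in the ends and 6.58% in the rest. Their median gain was 0.646 in the ends and 0.607 in the rest, larger in the end on 8 of 8 chromosomes. In the first 3 Mb, a part of the rest, it was 0.631. On chromosome 1 the CHG gain was 0.646 in the first 3 Mb and 0.641 in the distal end, and on chromosome 3 it was 0.6535 and 0.6415. On the other chromosomes it was larger in the distal end, by the most on chromosome 4 (0.523 and 0.659) and by little on chromosome 6 (0.6430 and 0.6435). The difference of 0.0388 between the ends and the rest was 0.0182 at a p-value below 0.001 and 0.0062 among regions with a CK level below 0.05. CG hyper-DMRs had median levels of 0.727 after M.CviP I and 0.0109 in CK in the ends, and 0.723 and 0.0131 in the rest. Their median gain was 0.676 in the ends and 0.663 in the rest, and it was larger in the end on 7 chromosomes and smaller on chromosome 1 (0.666 in the end and 0.670 in the rest). In the first 3 Mb it was 0.674, close to that of the distal ends. The difference of 0.0129 between the ends and the rest was 0.0045 among regions with a CK level below 0.05 and 0.0310 for the last 1 Mb.

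Splitting the hyper-DMRs by their level in CK, a split chosen after the values were seen, showed where the ends were dense. CHG hyper-DMRs that began below 0.01 in CK were 1.58 times as dense in the ends as in the rest (508.4 and 321.8 per Mb), and those that began at 0.5 or more were 0.519 times as dense (26.0 and 50.1 per Mb). In both of these classes the median gains of the compartments were close, at 0.720 in the ends and 0.720 in the rest for the first and 0.209 and 0.205 for the second. From 0.05 to 0.2 in CK the gain was 0.501 in the ends and 0.4685 in the rest, and from 0.2 to 0.5 it was 0.368 and 0.340, in both classes larger in the end on 8 of 8 chromosomes. From 0.01 to 0.05 it was 0.619 and 0.610, larger in the end on 6 chromosomes. For CG hyper-DMRs the ratio was 1.53 below 0.01 in CK and 1.07 at 0.5 or more, with 1.19 and 1.24 in the classes from 0.05 to 0.2 and from 0.2 to 0.5.

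CHH hyper-DMRs did not follow that order. Those that began below 0.01 in CK were denser in the ends (559.2 per Mb, against 396.0 per Mb in the rest, ratio 1.41), those between 0.05 and 0.2 were sparser (429.2 and 550.3 per Mb, ratio 0.780), and those between 0.2 and 0.5 were denser again (116.4 and 81.2 per Mb, ratio 1.43). For CHH regions that began between 0.01 and 0.05 the median gain still differed between compartments, 0.542 in the ends and 0.481 in the rest, and it was larger in the end on 8 of 8 chromosomes. For those between 0.05 and 0.2 it was 0.341 in the ends and 0.341 in the rest.

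**Figure D4:**
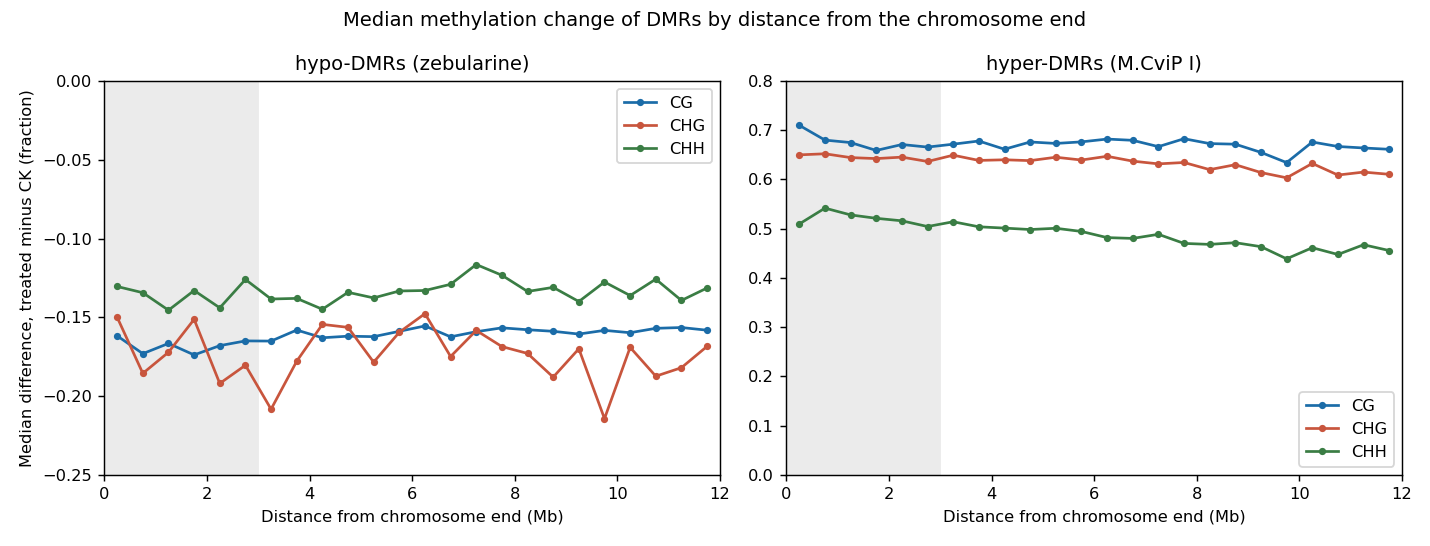
Median difference of DMRs (treated minus CK, as a fraction) in steps of 0.5 Mb against the distance from the distal end in Mb, over chromosomes 1 to 8, with zebularine on the left and M.CviP I on the right. The shaded band is the last 3 Mb; the CHH gain is 0.542 at 0.5 to 1 Mb and 0.456 at 11.5 to 12 Mb, and the CG loss stays between -0.174 and -0.1555.

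The CHH gain changed gradually with distance. The median gain was 0.510 in the outermost 0.5 Mb, 0.542 at 0.5 to 1 Mb, 0.504 at 2.5 to 3 Mb and 0.456 at 11.5 to 12 Mb from the end. Among the 3 Mb windows of each chromosome, the end had the largest median CHH gain on 6 chromosomes and was among the top 3 on 8 of 8. CHH hyper-DMRs in the ends held slightly fewer cytosines than those in the rest, with medians of 53 and 55.

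CHH hyper-DMRs were then sorted by the gains in other contexts with which they shared at least 1 base. CHH regions with no CG or CHG gain made up 28.7% of those in the ends and 44.8% of those in the rest, and their median gains were 0.373 and 0.376. CHH regions that shared bases with a CHG gain alone made up 41.4% in the ends and 34.1% in the rest, with median gains of 0.554 and 0.520, larger in the end on 8 of 8 chromosomes. CHH regions that shared bases with both a CG and a CHG gain made up 25.4% in the ends and 17.3% in the rest, with median gains of 0.627 and 0.616. With or without a CG gain, 66.8% of the CHH hyper-DMRs in the ends and 51.4% in the rest overlapped a CHG gain, near the shares of all 500 bp windows with a CHG gain, 62.8% in the ends and 49.0% in the rest, so these class shares say little about the CHH regions themselves.

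CG losses and CHG gains overlapped in both compartments. Of the CG hypo-DMRs, 37.6% in the ends and 26.8% in the rest overlapped a CHG hyper-DMR by at least 1 base, with a higher share in the end on 8 of 8 chromosomes. CHG hyper-DMRs themselves covered 33.1% of the bases of the ends and 25.04% of those of the rest, and touched 62.8% and 49.0% of the 500 bp windows. A share of regions touched over 1 base or more is not a like measure to a share of bases. Against the windows, both shares of CG hypo-DMRs were lower. The regions were mostly shorter than such windows, so this comparison is not exact either. Counted from the other side, 12.1% of the CHG hyper-DMRs in the ends and 16.7% in the rest overlapped a CG hypo-DMR. This share was lower in the end on 8 of 8 chromosomes. CG hypo-DMRs covered 9.51% of the bases of the ends and 16.0% of those of the rest, and touched 21.3% and 32.3% of the 500 bp windows. When only CHG hyper-DMRs with a CK level below 0.05 were kept, 25.4% of the CG hypo-DMRs in the ends and 10.8% in the rest shared a base with them. These CHG hyper-DMRs covered 26.6% and 17.2% of the length, and the 500 bp windows they touched were not counted. The levels are means over each whole DMR and come from different CK libraries, so the levels over the shared bases alone are not known. Whether these regions lie in genes was not analysed here.

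The 2 kinds of CG hypo-DMR had opposite distributions. The 1901 CG hypo-DMRs in the ends that shared a base with a CHG gain of low CK level stood at 79.2 per Mb, against 52.0 per Mb in the rest (ratio 1.52, denser in the end on 8 of 8 chromosomes). Their median levels were 0.713 after zebularine and 0.935 in CK in the ends, and 0.717 and 0.936 in the rest. The other 5579 stood at 232.5 per Mb, against 430.9 per Mb in the rest (ratio 0.539, sparser in the end on 8 of 8 chromosomes), with median levels of 0.794 after zebularine and 0.954 in CK in the ends and 0.795 and 0.952 in the rest. Within each kind the median loss was almost the same in both compartments, -0.208 in the ends and -0.207 in the rest for those that shared and -0.156 in the ends and -0.154 in the rest for the others. The kind with the larger loss also had fewer cytosines, a median of 13 against 25 within the ends. This split was chosen after the values were seen. The CHG gains of low CK level that define it were themselves 1.53 times as dense in the ends as in the rest, near the ratio of 1.52. That ratio thus says little about the CG hypo-DMRs themselves.

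Hypo-DMRs of different contexts also met. Of the 176 CHG hypo-DMRs in the ends 73.3% overlapped CG hypo-DMRs, against 76.0% in the rest. Both were above the shares of 500 bp windows with a CG hypo-DMR, 21.3% in the ends and 32.3% in the rest. Of the 223 CHH hypo-DMRs in the ends 34.1% overlapped CG hypo-DMRs, against 40.7% in the rest. CG hyper-DMRs overlapped 2.26% of the CG hypo-DMRs in the ends and 1.37% in the rest. They covered 11.8% of the bases of the ends and 8.52% of those of the rest, and touched 29.6% and 21.3% of the 500 bp windows.

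Large CG losses were rare, and they were unevenly spread over the ends. A loss of at least 0.5 was seen in 49 CG hypo-DMRs of the ends and 240 of the rest, or 0.655% and 0.202% of the CG hypo-DMRs there, where the share over all 126497 CG hypo-DMRs of the 8 chromosomes was 0.228%. Their density was 2.04 per Mb in the ends and 0.974 per Mb in the rest, a ratio of 2.10 (interval 1.51 to 2.86). The end of chromosome 7 alone held 22 of the 49, or 7.33 per Mb against 1.09 per Mb in the rest of that chromosome. The other ends held 0 (chromosome 5) to 9 (chromosome 2). Without chromosome 7 there were 27 in the ends, at 1.29 per Mb, and 211 in the rest, at 0.960 per Mb, a ratio of 1.34. At lower limits the densities of the compartments were closer. For losses of at least 0.4 the ratio was 1.34 over all 8 chromosomes and 1.02 without chromosome 7, and for losses of at least 0.3 it was 1.03 and 0.955. Chromosome 7 was singled out after its values were seen.

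**Figure D5:**
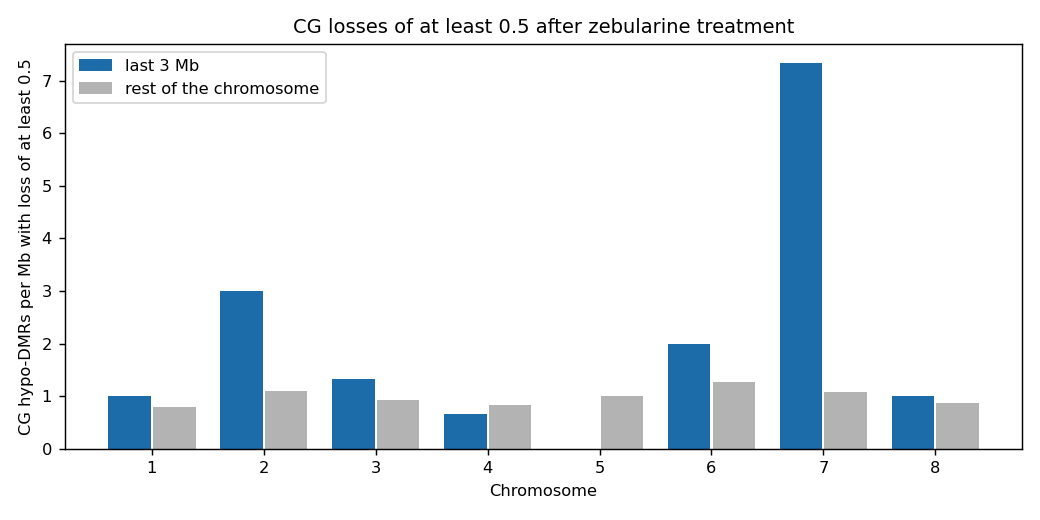
CG hypo-DMRs per Mb with a loss of at least 0.5 after zebularine, in the last 3 Mb (blue) and in the rest (grey) of each of chromosomes 1 to 8. The end of chromosome 7 reaches 7.33 per Mb, and no other end exceeds 3 per Mb.

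The 22 large losses of the chromosome 7 end lay between 26819666 and 28859294, a stretch of 2.04 Mb. Their levels after zebularine were 0 to 0.450 with a median of 0.207, and their CK levels 0.529 to 0.983 with a median of 0.797, over a median of 10.5 cytosines. In 9 of them the level after zebularine was below 0.05. Several sat side by side: 3 lay between 27497251 and 27498157, with levels after zebularine of 0.377, 0 and 0.0217 and CK levels of 0.983, 0.907 and 0.598, and another 3 lay between 27532351 and 27534348, all at 0 after zebularine and at 0.633, 0.711 and 0.636 in CK. A further 10 large losses lay in the 3 Mb just inward of the end. The most large losses in any 2 Mb was 22 on chromosome 7 (1.64 to 3.64 Mb from its distal end, across the 3 Mb limit and so not the same 22), 14 on chromosome 6 (23.6 to 25.6 Mb from its distal end) and 4 to 7 on the others. Losses of at least 0.4 stood at 14.7 per Mb in the chromosome 7 end and 4.72 per Mb in its rest, and losses of at least 0.3 at 33 and 22.6 per Mb. Since there was 1 zebularine library and 1 CK library, a difference between the seedlings used and an effect of zebularine cannot be told apart for this stretch.

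The single regions with the largest change among those with at least 10 cytosines give examples of each set. For CG hypo-DMRs this was chromosome 7 from 27497461 to 27497556, 96 bp with 15 cytosines, with a level of 0 after zebularine and 0.907 in CK and no DMR of another kind over it. For CHG hypo-DMRs it lay near by, on chromosome 7 from 27048325 to 27048812 with 42 cytosines, at 0.283 after zebularine and 0.651 in CK. It was overlapped by 2 CG hypo-DMRs, the first at 0.579 after zebularine and 0.958 in CK and the second at 0.862 and 0.963, and by a CHH hyper-DMR at 0.361 after M.CviP I and 0.0712 in its own CK. For CHH hypo-DMRs it was chromosome 2 from 34729986 to 34730066 with 14 cytosines, at 0.0329 after zebularine and 0.337 in CK. A CG hypo-DMR that overlapped part of this region had levels of 0.765 after zebularine and 0.922 in CK. A CHG hypo-DMR that also overlapped part of it had levels of 0.589 and 0.864. A CHH hyper-DMR over the region stood at 0.625 after M.CviP I and 0.107 in its own CK.

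Hyper-DMRs included regions that were unmethylated in CK and fully methylated after M.CviP I. The named CG region was on chromosome 8 from 28158853 to 28159293 with 17 cytosines, with a level of 1 after M.CviP I and 0 in CK, and 16 CG regions of the ends shared this difference. The named CHG region was on chromosome 1 from 42615320 to 42615664 with 14 cytosines, 1 of 29 at this difference. A CG hypo-DMR over it had levels of 0.425 after zebularine and 0.653 in CK. The named CHH region was on chromosome 4 from 34412759 to 34413040 with 14 cytosines, 1 of 7 at this difference, and the CG cytosines over it stood at 0.891 after M.CviP I and 0.0063 in CK.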

How the data were processed

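BS-seq data of 4 libraries, 1 per condition, were used as 2 lists of DMRs. According to the methods, the authors trimmed reads with Fastp, aligned them to MSU7.0 with Bismark, kept cytosines with at least 3 reads and called DMRs with CGmapTools at a p-value under 0.01 and a difference of at least 0.1; versions were not given in the sources used here. The deposited methylation level is a fraction, the mean over the cytosines of a DMR in 1 library, and its replicates were not pooled since there were none. The deposited p-value is that of the authors' test across the cytosines of a DMR; it was used only as a stricter filter. Each list also holds a deposited t statistic, a score of the same test. This column was not used, and the authors' column of differences served only to tell the level columns apart. The lists had no header, and the treated and CK columns were told apart because the deposited difference equals the first level minus the second, the study takes differences as treated minus CK, and each list is named for its direction.

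Densities, covered bases, medians with quartiles and shared bases (at least 1) were computed with Python 3.11.15, numpy 2.4.6, pandas 2.3.3 and scipy 1.17.1, and the figures with matplotlib 3.10.9. The largest region end of either list stood for the end of a chromosome, with the full lengths in MSU7.0 left aside. Intervals of a density ratio are exact binomial at 95%, those of a median are from order statistics, and both cover counting error only; total read depth is unknown. The scripts were tested on simulated data. Regions were named by rule: in each set the largest change among DMRs with at least 10 cytosines, the 100 kb window with most DMRs, and the longest stretch without any. The members and lists were chosen with earlier results of these data known. Alternatives were a p-value under 0.001, a minimum difference of 0.2, at least 10 cytosines and ends of 1 or 5 Mb. Others were merging within 100 bp, covered bases, and densities over only those 500 bp windows that held a DMR. Means, medians of chromosome medians and leaving out each chromosome were also used. The limit on CK levels and the omission of chromosome 7 were added after the data were seen. Annotation and sequence of MSU7.0 were not used here.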

Additional observations from a re-analysis of the deposited data

How the results depend on the processing

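No paired analysis was possible because there was a single library in every group, and leaving out a library would leave no comparison. Chromosomes were left out in turn instead. Of 193 alternative values, 141 stayed within the interval of the value reported, 48 moved out of it in the same direction and 4 changed direction. For a median difference, this interval had the width of the interval of the median in the ends, centred on the difference. It left out the counting error of the rest, so these counts are a rough guide. The causes were not tested. The unknown read depth limits every level, and small medians can move with the number of cytosines per region.

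The CG hypo-DMR density ratio (0.645) was 0.593 at a p-value under 0.001, 0.830 at a difference of at least 0.2, 0.609 with at least 10 cytosines, 0.707 for the last 1 Mb, 0.688 after merging and 0.593 as covered bases. Its median difference, ends minus rest (-0.0093), was -0.0071 at the stricter p-value, -0.0058 with at least 10 cytosines, -0.0076 for 1 Mb, -0.0070 for 5 Mb and -0.0124 as a mean. At a difference of at least 0.2, the CHG hypo-DMR median difference (0.0038) was -0.0102 and the CHH hypo-DMR density ratio (0.885) was 1.20. The CG hyper-DMR density ratio (1.41) was 1.37 with at least 10 cytosines, 1.32 for 1 Mb, 1.47 for 5 Mb and 1.49 with CK under 0.05, and its median difference (0.0129) was 0.01905 with at least 10 cytosines, 0.0310 for 1 Mb and 0.0045 with CK under 0.05. The CHG hyper-DMR density ratio (1.36) was 1.45 at the stricter p-value, 1.39 at a difference of at least 0.2, 1.32 with at least 10 cytosines, 1.34 for 1 Mb, 1.33 after merging, 1.32 as covered bases and 1.53 with CK under 0.05. Its median difference (0.0388) was 0.0182 at the stricter p-value, 0.0322 at a difference of at least 0.2, 0.0492 with at least 10 cytosines, 0.0433 as a mean, 0.0481 as a median of chromosome medians and 0.00625 with CK under 0.05. The CHH hyper-DMR density ratio (0.989) was 1.04 after merging and 1.06 with CK under 0.05, and its median difference (0.0652) was 0.0617 for 5 Mb, 0.0409 as a mean and 0.0560 with CK under 0.05. The density ratio of CG losses of at least 0.5 (2.10) was 1.34 without chromosome 7.

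With each chromosome left out in turn, density ratios were 0.633 to 0.664 for CG, 0.664 to 0.733 for CHG and 0.824 to 0.920 for CHH hypo-DMRs, and 1.36 to 1.47 for CG, 1.33 to 1.39 for CHG and 0.986 to 0.995 for CHH hyper-DMRs. Median differences were -0.0099 to -0.0082, 0.00195 to 0.00495 and -0.0075 to -0.0037 for hypo-DMRs, and 0.0110 to 0.0154, 0.0345 to 0.0439 and 0.0625 to 0.0689 for hyper-DMRs, in the same order of contexts.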
